A study of Mus musculus with 18 samples.

Results

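A set of 10 adhesion and retention genes was followed by symbol in tumor-infiltrating T cells: the integrin chains *Itgae*, *Itga1*, *Itga4*, *Itgal*, *Itgb1*, *Itgb2* and *Itgb7*, together with *Cd69*, *Zfp683* and *S1pr5*. All 10 were present among the 37236 genes of the table. The cells came from C57BL/6 mice (8 to 12 weeks old in the tumor challenges of the study), either wild-type (*Nr2f6*+/+) or lacking the nuclear receptor NR2F6 in every cell (*Nr2f6*-/-, a germline knockout, so that the deficiency is not limited to T cells). Every mouse carried a subcutaneous B16-OVA tumor, a melanoma line that expresses the model antigen ovalbumin, grown from 500000 injected cells. Mice received 0.5 mg of either the PD-L1 blocking antibody 10F.9G2 (αPD-L1) or the control antibody LTF-2 (IgG2b) from day 3 onwards, and tumors were taken on day 14. CD4 and CD8 T cells were enriched on beads, pooled and sorted for CD3. Each genotype was represented by 3 samples with the control antibody and 6 samples with the blocking antibody, 18 in all, and the *Nr2f6*-/- αPD-L1 group is called the combination. Nothing in the labels ties a sample to 1 mouse, so p-values measure the spread between these samples. Libraries numbered 28 to 39 hold replicates 1 to 3 of all 4 groups and are called the first library set. Libraries 43 to 48 hold replicates 4 to 6 of the αPD-L1 groups and are called the second.

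Integrins are surface receptors made of an α and a β chain. *Itgal* and *Itgb2* encode LFA-1, which binds ICAM-1 on endothelium and target cells, and *Itga4* pairs with *Itgb1* to form VLA-4, the receptor for VCAM-1 and fibronectin, or with *Itgb7* to form the gut-homing receptor for MAdCAM-1. *Itgae* encodes CD103, which pairs with the β7 chain, binds E-cadherin on epithelium and is induced by TGF-β. *Itga1* encodes CD49a, which pairs with the β1 chain and binds collagen. CD103, CD49a and CD69 mark T cells that stay in a tissue. CD69 removes the egress receptor S1PR1 from the cell surface, *S1pr5* encodes a related egress receptor, and *Zfp683* encodes HOBIT, a transcription factor of resident lymphocytes. CD69 is also an early activation antigen, and CD103 is found on many regulatory T cells.

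The genes lie on 10 different chromosomes of GRCm38 by the GENCODE M21 annotation. *Itgae* spans chr11:73090583-73147446 on the plus strand and *Itgb1* chr8:128685654-128733200, 57.3 Mb from *Nr2f6* on the same chromosome. Reads of some members could be shared with neighbors, since the strand setting of the counting is not given in the sources used here. *Pelo* lies inside *Itga1* on the same strand, *Cerkl* overlaps the 3′ end of *Itga4* on the opposite strand, and *Haspin* lies within *Itgae* on the opposite strand, so these 3 members carry that uncertainty. Start-site windows were held by RefSeq (GRCm38.p6) for 5 members, *Itga1*, *Itga4*, *Itgb1*, *Itgb7* and *S1pr5*, each covering 250 bases before and 50 bases after the start. On both strands, none of the 5 windows held AGGTCA, the hexamer bound by nuclear receptors, which occurred in 16.0% of 27025 mouse windows. None held the AP-1 element TGANTCA (7.93% of all windows). The RUNX core TGTGGT (16.9% of all windows) occurred once, in *Itga4*, and the NFAT core TTTCCA (21.5%) once, in *Itgb1*. The searched motifs differ in their letters, and no match says only that these letters are absent from the window. The bases upstream of the start sites of these 2 genes, whose products form VLA-4, are shown because they hold those matches, in capitals. The *Itga4* match, read on the opposite strand, begins 60 bases before the start (chr2:79255176-79255425, plus strand), and the *Itgb1* match begins 160 bases before it (chr8:128685404-128685653, plus strand).
Itga4: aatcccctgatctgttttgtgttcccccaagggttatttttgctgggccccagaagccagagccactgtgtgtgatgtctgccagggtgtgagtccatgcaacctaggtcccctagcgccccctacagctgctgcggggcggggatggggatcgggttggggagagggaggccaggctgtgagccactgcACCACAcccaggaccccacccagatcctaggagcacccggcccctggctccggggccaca
Itgb1: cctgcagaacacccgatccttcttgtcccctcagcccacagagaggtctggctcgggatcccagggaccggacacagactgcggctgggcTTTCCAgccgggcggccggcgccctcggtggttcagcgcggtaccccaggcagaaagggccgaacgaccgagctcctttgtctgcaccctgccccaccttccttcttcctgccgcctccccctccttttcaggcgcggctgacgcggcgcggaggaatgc

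Samples held between 12473391 and 18609482 reads on genes, with a median of 16554699. *Nr2f6* had 0 reads in all 9 *Nr2f6*-/- samples and between 20.2 and 200.8 normalized counts in the 9 *Nr2f6*+/+ samples. The summed level of 10 T cell markers ranged from 42230 to 65370 normalized counts, and none of these markers was at 0 in a group. The summed level of 14 macrophage and monocyte markers was between 18960 and 28530 with IgG2b and between 5832 and 19690 with αPD-L1. Of this sum, *Ly6c2*, which T cells also make, gave 28.9% to 55.1% with IgG2b and 46.6% to 95.3% with αPD-L1. The other 13 markers, separated after the values were seen, summed to between 9038 and 20290 with IgG2b and between 907.2 and 6771 with αPD-L1, with no overlap between the antibodies, and 1 of them (*Arg1*) was at 0 in all *Nr2f6*-/- αPD-L1 samples. The medians of the 14 were -3.40 for αPD-L1 in *Nr2f6*+/+ mice, -3.07 in *Nr2f6*-/- mice and -3.70 for the combination against *Nr2f6*+/+ IgG2b, against -0.10, -0.04 and -0.12 over all genes. In bulk RNA, fewer cells of a type and less RNA per cell cannot be told apart, and the part of cell composition in the values that follow was not tested.

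None of the 9 members that passed the filter (mean over all samples not below 10 normalized counts) changed in any of the 7 comparisons by limma, with p adjusted over all 11992 genes tested. *S1pr5* passed only through the *Nr2f6*-/- αPD-L1 group, so its tests are not read. With αPD-L1, *Nr2f6*-/- against *Nr2f6*+/+, 0 of 9 members were called where 0.175% of all genes were. The background was 0% for genotype with IgG2b, 0.242% for αPD-L1 in *Nr2f6*+/+ mice, 0.325% for αPD-L1 in *Nr2f6*-/- mice, 0.617% for the combination against *Nr2f6*+/+ IgG2b, 0.459% for *Nr2f6*-/- IgG2b against *Nr2f6*+/+ αPD-L1, and 0% for the difference of the αPD-L1 effect between genotypes. A share of 0 of 9 is near each of these backgrounds and is no result about the members. At an unadjusted p under 0.05, 1 member passed for genotype with αPD-L1 (9.73% of all genes), 0 for genotype with IgG2b (5.35%), 0 for αPD-L1 in *Nr2f6*+/+ mice (7.24%), 2 for αPD-L1 in *Nr2f6*-/- mice (9.7%), 2 for the combination against *Nr2f6*+/+ IgG2b (9.04%), 1 for *Nr2f6*-/- IgG2b against *Nr2f6*+/+ αPD-L1 (11.2%) and 1 for the difference of effects (4.97%). None of the 9 was without overlap between the 6 and 6 αPD-L1 samples (0.592% of all genes), between the antibodies in *Nr2f6*+/+ mice (4.54%) or between *Nr2f6*-/- IgG2b and *Nr2f6*+/+ αPD-L1 mice (5.36%). edgeR and DESeq2 on the recovered reads also called 0 members in each comparison.

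**Figure D1:**
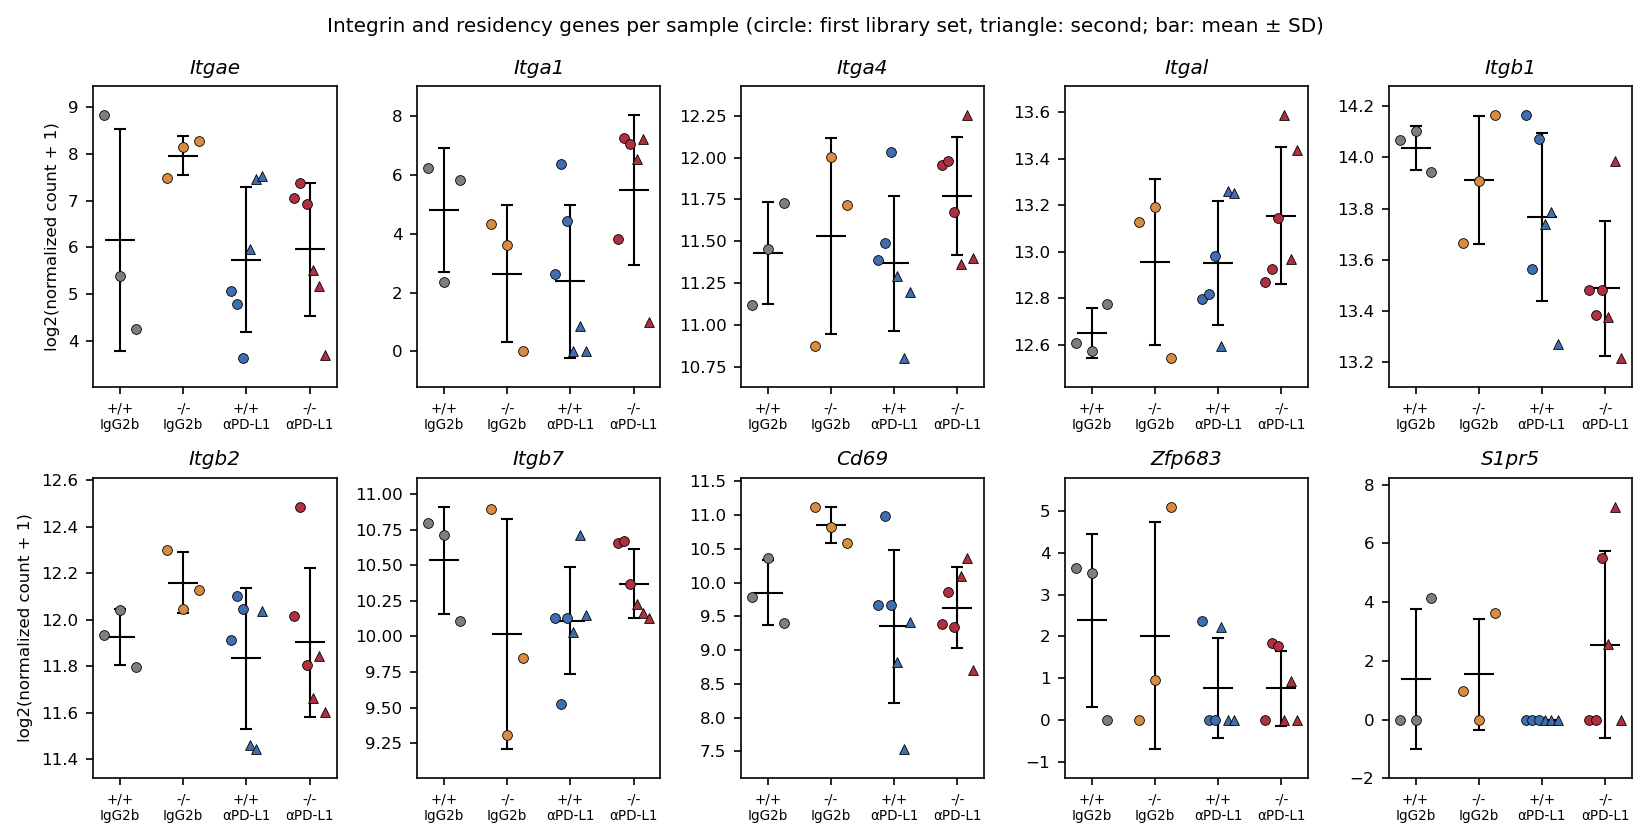
Level of each of the 10 genes in every sample, as log2(normalized count + 1) on a separate vertical scale per gene, by *Nr2f6* genotype and antibody. Circles are the first library set, triangles the second, and bars the group mean ± SD. *Itgal* lies between 5978 and 12308 normalized counts and *Itgb1* between 9530.5 and 18368 in all samples, whereas *Itgae* runs from 11.5 to 452 and *Itga1* from 0 to 153.

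How far a member varied between samples of 1 group differed widely. The within-group SD on the log2 scale was 0.276 for *Itgal*, 0.27 for *Itgb1* and 0.272 for *Itgb2*, which placed these LFA-1 and β1 chains among the steadiest genes of the table (percentiles 5.06, 4.56 and 4.64 of the SDs of all genes tested). It was 0.407 for *Itga4*, 0.431 for *Itgb7* and 0.796 for *Cd69*, against a median of 0.882 over all genes. The residency chains were above that median, with 1.55 for *Itgae* and 2.48 for *Itga1*. For *Itgae* and *Itga1*, the intervals of the differences are accordingly several log2 units wide. Mean levels differed as well, at 8199, 14030 and 3954 normalized counts for *Itgal*, *Itgb1* and *Itgb2* and at 126.5 and 45.2 for *Itgae* and *Itga1*. The SDs were not compared with genes of like level, so the ranks are not read as a trait of the chains.

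*Itgae*, the CD103 chain, was highest in *Nr2f6*-/- IgG2b mice, at 177, 283 and 306 normalized counts in the 3 samples. The *Nr2f6*+/+ IgG2b samples held 452, 40.6 and 18.2, so that 1 sample lay above and the other two below every *Nr2f6*-/- sample. With αPD-L1, *Nr2f6*+/+ samples ranged from 11.5 to 183 with a median of 46.8, and *Nr2f6*-/- samples from 12.03 to 165 with a median of 83.2. All *Nr2f6*-/- αPD-L1 samples were below all *Nr2f6*-/- IgG2b samples (log2 difference -2.001, SE 1.14, adjusted p = 0.599 from limma). The difference was -0.84 in the first library set, the only set with IgG2b samples. Samples did not overlap in that comparison for 5.12% of all genes, and for 2 of 9 members, *Itgae* and *Cd69*, both lower with αPD-L1. The genotype difference was 1.80 with IgG2b (SE 1.31, adjusted p = 0.989) and 0.22 with αPD-L1 (95% interval -1.68 to 2.12, adjusted p = 0.962), higher in *Nr2f6*-/- in both. The value with IgG2b was 3.14 without *Nr2f6*+/+ replicate 1 and 0.86 without *Nr2f6*+/+ replicate 3. The αPD-L1 effect in *Nr2f6*+/+ mice was -0.42 (SE 1.14, adjusted p = 0.976), and without the high *Nr2f6*+/+ IgG2b replicate 1 it was 0.92. *Nr2f6*-/- IgG2b exceeded *Nr2f6*+/+ αPD-L1 by 2.22 (SE 1.14, adjusted p = 0.473).

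The small *Itgae* difference between genotypes with αPD-L1 was the mean of opposite orders in the 2 library sets. In the first set, *Nr2f6*-/- samples held 132, 165 and 121 normalized counts and *Nr2f6*+/+ samples 32.4, 26.5 and 11.5, so that the knockout lay above with no overlap. In the second set, *Nr2f6*-/- samples held 44.9, 35.1 and 12.03 and *Nr2f6*+/+ samples 61.2, 175.8 and 182.7, so that the knockout lay below with no overlap. The difference, *Nr2f6*-/- minus *Nr2f6*+/+, was 2.63 in the first set (SE 1.17, adjusted p = 0.422) and -2.18 in the second (SE 1.17, adjusted p = 0.636) in a limma fit with a mean for each group and library set, a fit chosen after the values were seen. The first difference minus the second was 4.81 (SE 1.66, unadjusted p = 0.00744, adjusted p = 0.446), and a reversal without overlap in both sets was found for 70 of 11992 genes (0.584%). By adjusted p, 0 of 9 members were called in the first set (0.709% of all genes), in the second (0.0334%) and for the difference between sets (0.0584%). At an unadjusted p under 0.05, *Itgae* and *Itgb1* passed in the first set (10.3%), *Itga1* and *Cd69* in the second (8.33%), and *Itgae* and *Cd69* for the difference (7.83%). Genotypes did not overlap in the first set for *Itgae*, *Itgb1* and *Itgb7* (13.4% of all genes) and in the second for *Itgae*, *Itga1* and *Itga4* (11.1%). For *Itga1* the lowest knockout and the highest wild-type sample of the second set held 1 read each. *Foxp3*, the regulatory T cell factor, was at 352, 449 and 243 in the *Nr2f6*+/+ samples of the first set and at 481, 912 and 603 in those of the second. The share of all genes without overlap between the sets within 1 genotype was not computed. Other regulatory T cell markers are not given by set, so the *Foxp3* values are not read as a result. In *Nr2f6*-/- samples *Foxp3* was at 215, 514 and 690 in the first set and at 703, 184 and 910 in the second, which overlap. *Cd4* in the *Nr2f6*+/+ samples was at 3965, 4219 and 1669 in the first set and at 3058, 6711 and 7358 in the second, with *Cd8a* at 8858, 9803 and 13579 and then at 11227, 5361 and 7195. In *Nr2f6*-/- samples *Cd4* was at 4374, 3279 and 3215 in the first set and at 4676, 2026 and 5857 in the second. *Cd8a* in these was at 14103, 11358 and 13428 and then at 11628, 17119.5 and 11329, and both genes overlap between the sets. What the 2 sets differed in beyond their library numbers is not given in the labels, and the part of cell composition in the reversal was not tested.

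**Figure D2:**
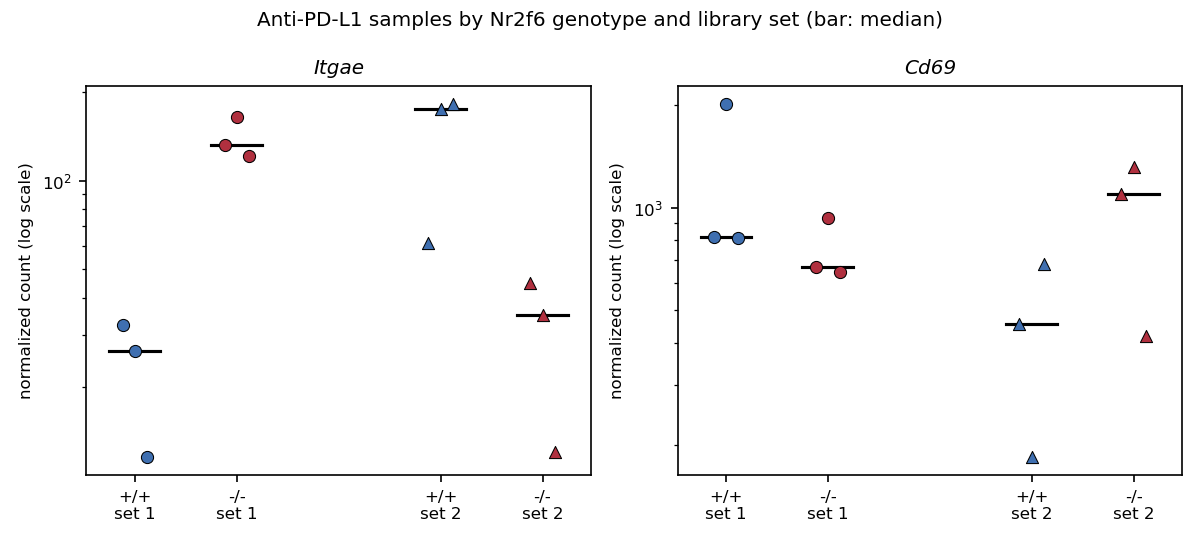
Normalized counts (logarithmic scale) of *Itgae* and *Cd69* in the 12 αPD-L1 samples by genotype and library set, with 3 samples in each column and a bar at the median. The *Itgae* medians are 26.5 and 132.0 for *Nr2f6*+/+ and *Nr2f6*-/- in set 1 and 175.8 and 35.1 in set 2, and the *Cd69* medians are 816.6 and 669.5 in set 1 and 453.8 and 1094.8 in set 2.

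*Itgb7*, the partner chain of CD103, gave no such reversal without overlap. It ranged from 734 to 1675 normalized counts in *Nr2f6*+/+ αPD-L1 samples, with a median of 1117, and from 1121 to 1630 in *Nr2f6*-/- αPD-L1 samples, with a median of 1258. The overall genotype difference was 0.26 (95% interval -0.25 to 0.76, adjusted p = 0.782). In the first set the knockout was higher without overlap, by 0.64 (SE 0.338, adjusted p = 0.536), and in the second the difference was -0.12 (SE 0.338, adjusted p = 0.963).

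*Cd69* was highest in *Nr2f6*-/- IgG2b mice, at 2234, 1821 and 1539 normalized counts, above the 886, 1317 and 675 of *Nr2f6*+/+ IgG2b mice with no overlap. For genotype with IgG2b, samples did not overlap for 14.2% of all genes and for 2 of 9 members, *Cd69* and *Itgb2*, both higher in the knockout. The *Cd69* difference there was 0.996 on the log2 scale (SE 0.533, adjusted p = 0.937). With αPD-L1, *Nr2f6*+/+ samples ranged from 184 to 2021 with a median of 749, and *Nr2f6*-/- samples from 418 to 1320 with a median of 801. The latter were all below the *Nr2f6*-/- IgG2b samples. In *Nr2f6*-/- mice, *Cd69* was lower with αPD-L1 by 1.22 (difference -1.22, SE 0.461, unadjusted p = 0.0131, adjusted p = 0.333). The corresponding value in *Nr2f6*+/+ mice was -0.50 (SE 0.461, adjusted p = 0.877), and the difference between these effects was -0.72 (SE 0.653, adjusted p = 0.985). Among the comparisons between groups, the lowest p of any member was that of *Cd69* between *Nr2f6*-/- IgG2b and *Nr2f6*+/+ αPD-L1. *Cd69* was 1.497 higher in the first (SE 0.461, unadjusted p = 0.00295, adjusted p = 0.17). In the first library set, the only one with both groups, this difference was 0.74. A lower p was found between library sets within *Nr2f6*+/+ αPD-L1 samples, by the limma fit with a mean for each group and library set. There *Cd69* was lower in the second set than in the first (-1.52, SE 0.462, unadjusted p = 0.00286, adjusted p = 0.3755). The same contrast in *Nr2f6*-/- αPD-L1 samples was 0.19 (SE 0.462, adjusted p = 0.94). Between genotypes with αPD-L1 the *Cd69* difference was 0.28 (95% interval -0.49 to 1.05, adjusted p = 0.859), and it was -0.087 without *Nr2f6*+/+ αPD-L1 replicate 5. It was -0.58 in the first library set (SE 0.462) and 1.13 in the second (SE 0.462), in the order opposite to *Itgae*, and the difference between sets was -1.71 (SE 0.653, unadjusted p = 0.0144, adjusted p = 0.509).

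**Figure D3:**
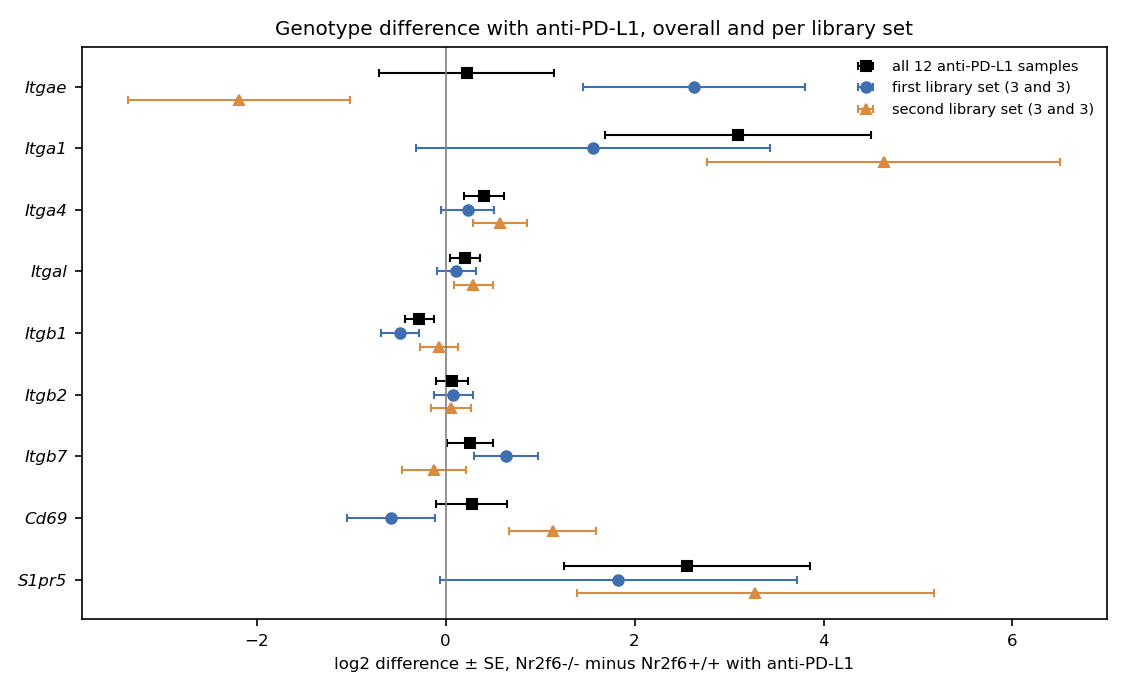
Difference between genotypes with αPD-L1 on the log2 scale (*Nr2f6*-/- minus *Nr2f6*+/+) with its SE for the 9 tested members, over all 12 αPD-L1 samples (squares), in the first library set (circles) and in the second (triangles). *Itgae* runs from 2.63 in the first set to -2.18 in the second and *Cd69* from -0.58 to 1.13, while *Itgb2* stays at 0.08 and 0.06. The *S1pr5* points depend on the pseudocount because all *Nr2f6*+/+ samples were at 0.

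*Itga1*, the CD49a chain, was scarce and unevenly detected, with reads in 15 of 18 samples. *Nr2f6*-/- αPD-L1 samples held 13.0, 152.8, 132.4, 92.9, 148.4 and 1.0 normalized counts, with a median of 113. *Nr2f6*+/+ αPD-L1 samples held 5.2, 81.6, 20.9, 0, 0.8 and 0, with a median of 3.02. Of the 6 knockout samples, 4 exceeded every *Nr2f6*+/+ sample and the other two lay within their range. The difference was 3.10 on the log2 scale (95% interval 0.22 to 5.97, unadjusted p = 0.0356, adjusted p = 0.474). It was 1.56 in the first library set (SE 1.87) and 4.64 in the second (SE 1.87). Normalized counts did not overlap in the second set, but only by scaling. Knockout replicate 6 (1.0) and wild-type replicate 5 (0.8) held 1 read each. With IgG2b the order was the other way, with 74.7, 4.2 and 55.6 in *Nr2f6*+/+ and 19.0, 11.3 and 0 in *Nr2f6*-/- samples (difference -2.16, SE 1.99, adjusted p = 0.989). That difference was -0.84 without *Nr2f6*-/- replicate 3, -1.45 without *Nr2f6*+/+ replicate 1 and -3.38 without *Nr2f6*+/+ replicate 2. The αPD-L1 effect was -2.42 in *Nr2f6*+/+ (SE 1.72, adjusted p = 0.843) and 2.84 in *Nr2f6*-/- mice (SE 1.72, adjusted p = 0.633). In the first library set these were -0.33 and 3.40. Without *Nr2f6*+/+ IgG2b replicate 2 the wild-type value was -3.64, and without *Nr2f6*-/- IgG2b replicate 3 the knockout value was 1.51. These effects differed by 5.26 (95% interval 0.28 to 10.2, unadjusted p = 0.0391, adjusted p = 0.974). A count of 0 allows up to 3 reads, or 2.46 to 3.65 normalized counts depending on the sample, counting error only.

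*Itgb1*, the β1 chain, had its lowest median in the combination group. *Nr2f6*-/- αPD-L1 samples ranged from 9530.5 to 16238 normalized counts with a median of 11068, and *Nr2f6*+/+ IgG2b samples held 17191, 17579 and 15721. Replicate 5 of the combination, at 16238, exceeded 1 of these 3, and its other 5 samples lay below them. The difference was -0.55 (95% interval -0.94 to -0.16, unadjusted p = 0.00754, adjusted p = 0.24). *Nr2f6*-/- IgG2b samples held 12975, 15367 and 18350, and αPD-L1 in *Nr2f6*-/- mice gave -0.42 (SE 0.191, unadjusted p = 0.0348, adjusted p = 0.46). Between genotypes with αPD-L1 the difference was -0.28 (95% interval -0.60 to 0.04, adjusted p = 0.593), with *Nr2f6*+/+ samples from 9900 to 18368 and a median of 13899. It was -0.48 in the first library set, where the knockout was lower without overlap (SE 0.202, adjusted p = 0.377), and -0.07 in the second (SE 0.202).

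*Itga4*, the α chain of VLA-4, ranged from 2632 to 4888 normalized counts in *Nr2f6*-/- αPD-L1 samples with a median of 3624, and from 1786 to 4202 in *Nr2f6*+/+ αPD-L1 samples with a median of 2595. The difference was 0.40 (95% interval -0.03 to 0.84, adjusted p = 0.553), with 0.23 in the first set (SE 0.282) and 0.57 in the second (SE 0.282), where the knockout was higher without overlap. In the IgG2b groups *Itga4* was at 2221, 2799 and 3388 in *Nr2f6*+/+ and at 1876, 4114 and 3361 in *Nr2f6*-/- samples, which overlapped.

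The LFA-1 chains had narrow intervals between genotypes under blockade. *Itgal* gave 0.20 (95% interval -0.12 to 0.53, adjusted p = 0.72) and *Itgb2* 0.07 (95% interval -0.28 to 0.41, adjusted p = 0.925). *Itgal* samples of the combination ranged from 7498 to 12308 normalized counts with a median of 8531, all above the 6249, 6092 and 7008 of *Nr2f6*+/+ IgG2b mice. This difference was 0.50 (95% interval 0.10 to 0.91, unadjusted p = 0.0159, adjusted p = 0.344). It ranged from 0.33 to 0.54 under the other settings. The second library set has no IgG2b samples, and combination samples ran from 7498 to 9047 in the first set and from 8014 to 12308 in the second. *Itgal* was the single member whose samples did not overlap there, against 6.17% of all genes. *Itgb2* with IgG2b was at 5044, 4226 and 4478 in *Nr2f6*-/- and at 3918, 4215 and 3559 in *Nr2f6*+/+ samples. The groups did not overlap, but the lowest knockout sample (4226) was close to the highest wild-type sample (4215).

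*Zfp683* and *S1pr5* were near or at 0 in most samples. *Zfp683* had reads in 9 of 18 samples, a mean of 3.88 normalized counts, and was not tested. Its highest value was 33.3, in *Nr2f6*-/- IgG2b replicate 3, and with αPD-L1 it did not exceed 4.2 in *Nr2f6*+/+ or 2.6 in *Nr2f6*-/- mice. *S1pr5* had reads in 6 of 18 samples and passed the filter mainly through *Nr2f6*-/- αPD-L1 replicates 5 (151.1) and 3 (43.7). All 6 *Nr2f6*+/+ αPD-L1 samples had 0 *S1pr5* reads, as did 3 of the 6 *Nr2f6*-/- αPD-L1 samples.

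Whether samples high in 1 chain of a receptor were also high in its partner was examined next. Over the 18 samples, deviations from the group means were correlated for 5 chain pairs, by permutation within groups with 100000 resamples and two-sided p adjusted over the 5 pairs. *Itgae* and *Itgb7* gave Pearson's r = 0.414 (permutation p = 0.0517, adjusted 0.103) and Spearman's rho = 0.554 (permutation p = 0.017, adjusted 0.0849), and r = 0.363 without the 2 samples farthest from the median of *Itgae*. Once library set was also centered, r was 0.188 (permutation p = 0.537), and in the first set alone it was 0.13. *Itga4* and *Itgb1* gave r = 0.518 (permutation p = 0.052, adjusted 0.103) and rho = 0.48 (permutation p = 0.0676, adjusted 0.169), and r = 0.385 without 2 samples. *Itga4* and *Itgb7* went the other way, with r = -0.566 (permutation p = 0.0619, adjusted 0.103), rho = -0.414 (permutation p = 0.151, adjusted 0.251) and r = -0.514 without 2 samples. *Itga1* and *Itgb1* gave r = 0.171 (permutation p = 0.553, adjusted 0.553) and rho = 0.039 (permutation p = 0.889, adjusted 0.889), with r = 0.15 without 2 samples. *Itgal* and *Itgb2* gave r = -0.309 (permutation p = 0.274, adjusted 0.343) and rho = -0.286 (permutation p = 0.304, adjusted 0.38), with r = -0.28 without 2 samples. No pair passed the threshold after adjustment over the 18 samples. In the 12 samples of the first set, *Itga1* and *Itgb1* went the other way, with r = -0.729 (permutation p = 0.0132, adjusted 0.0658), rho = -0.853 (permutation p = 0.00614, adjusted 0.0307) and r = -0.684 without 2 samples, so that the direction differed between the first set and all samples. With library set centered as well, r was 0.443 for *Itga4* and *Itgb1*, -0.607 for *Itga4* and *Itgb7*, -0.052 for *Itga1* and *Itgb1*, and -0.028 for *Itgal* and *Itgb2*.

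**Figure D4:**
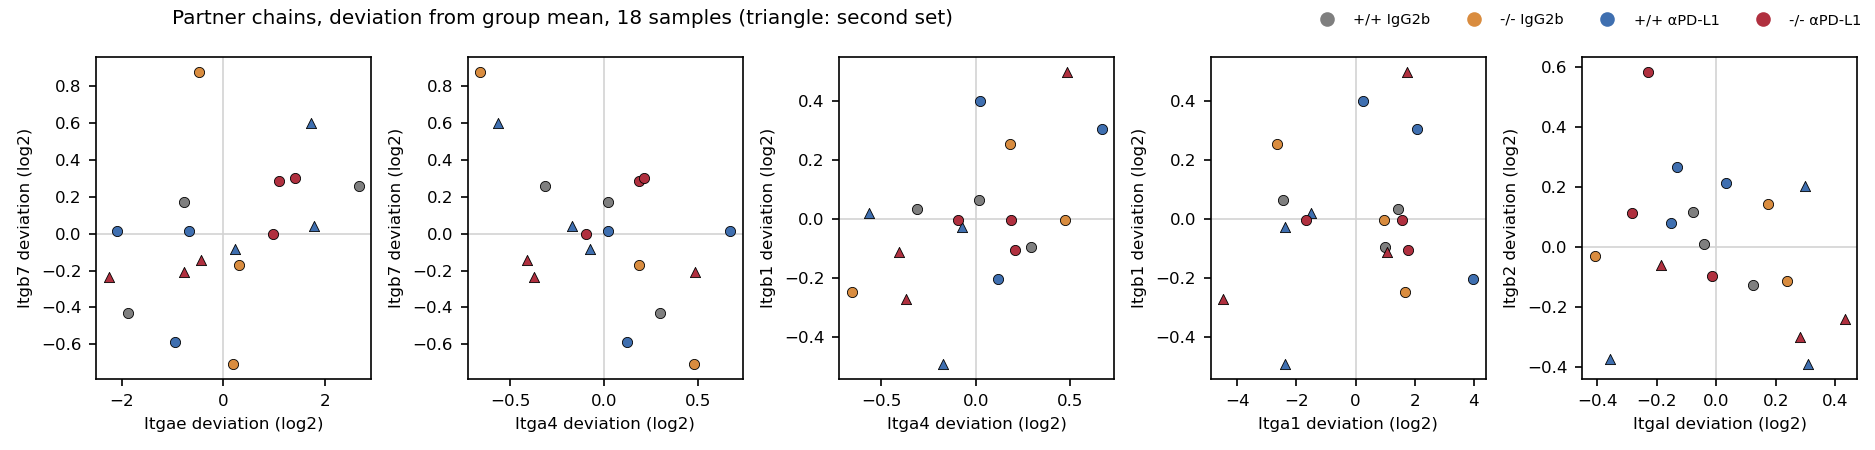
Deviation of each sample from its group mean on the log2 scale, α chain across and β chain up, for the 5 pairs of chains that form 1 receptor. Colors give the group and triangles the second library set. The points rise from left to right for *Itgae* with *Itgb7* (r = 0.414) and *Itga4* with *Itgb1* (r = 0.518), and fall for *Itga4* with *Itgb7* (r = -0.566).

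The wider adhesion and residency genes were counted in lists. No gene was called in any comparison among 8 tested α chains and 3 tested β chains other than the members, 25 activation and adhesion adaptors, 16 genes of the TGF-β pathway and 6 of the S1P axis. Of all genes, 0% to 0.617% were called per comparison, so the absence of calls is near the background and no result about these lists. Among adaptors the lowest p-values were those of *Rsu1*, a partner of the ILK complex (-1.18 for αPD-L1 in *Nr2f6*-/- mice, SE 0.352, adjusted p = 0.202), and *Fyb*, the ADAP adaptor (-0.66 for αPD-L1 in *Nr2f6*+/+ mice, SE 0.231, adjusted p = 0.426). In the TGF-β list, *Tgif1*, a SMAD corepressor, gave 1.60 between *Nr2f6*-/- IgG2b and *Nr2f6*+/+ αPD-L1 (SE 0.451, adjusted p = 0.119), and *Tgfbr2*, the receptor that signals for CD103 induction, -0.59 for αPD-L1 in *Nr2f6*+/+ mice (SE 0.228, adjusted p = 0.545). In the S1P list, *Sgpl1* gave -0.51 for the combination against *Nr2f6*+/+ IgG2b (SE 0.251, adjusted p = 0.568) and *S1pr2* -1.08 between *Nr2f6*-/- IgG2b and *Nr2f6*+/+ αPD-L1 (SE 0.538, adjusted p = 0.467). *S1pr1*, the egress receptor opposed by CD69, gave -1.04 for αPD-L1 in *Nr2f6*+/+ mice (SE 0.372, adjusted p = 0.455) and -0.93 in *Nr2f6*-/- mice (SE 0.372, adjusted p = 0.382). *Klf2*, which drives *S1pr1*, gave -1.62 (SE 0.572, adjusted p = 0.437) and -1.76 (SE 0.572, adjusted p = 0.25) in the same comparisons. Of the residency regulators, *Prdm1* gave 0.61 in both (adjusted p = 0.525 and 0.333) and *Runx3* 0.03 and 0.45 (adjusted p = 0.996 and 0.614). The second library set has no IgG2b samples. In *Nr2f6*-/- αPD-L1 samples *Runx3* was at 2673, 2425 and 2118 in the first set and at 3705, 4481 and 6065 in the second. *Runx3* in *Nr2f6*-/- IgG2b samples was at 2393, 2482 and 2452. In the same order, *S1pr1* was at 746, 796 and 1519, then 437, 906 and 386, then 964, 1329 and 1994. *Klf2* was at 584, 939 and 993, then 393, 452 and 217, then 1609, 1730 and 2030.

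Among 25 tested genes known to be high in resident T cells, 1 rose between genotypes with αPD-L1, 3 fell with αPD-L1 in *Nr2f6*+/+ mice, 2 fell with αPD-L1 in *Nr2f6*-/- mice and 4 were higher in *Nr2f6*-/- IgG2b than in *Nr2f6*+/+ αPD-L1 mice. The medians of the list in these 4 comparisons were 0.18, -0.44, -0.21 and 0.40, against -0.0049, -0.10, -0.04 and 0.04 over all genes tested. Of all genes, 0.175%, 0.242%, 0.325% and 0.459% were called in these comparisons. The list was chosen with earlier results of these data known, so its calls are no test against these shares. *Rgs2*, a brake on G-protein signaling, was the gene called between genotypes with αPD-L1 (1.76, SE 0.227, adjusted p = 8.85e-05). It also fell with αPD-L1 in *Nr2f6*+/+ mice (by 1.97, SE 0.279, adjusted p = 0.000387) and was 2.49 higher in *Nr2f6*-/- IgG2b than in *Nr2f6*+/+ αPD-L1 mice. *Nr4a1*, an early T cell receptor response gene, fell with αPD-L1 by 1.74 in both genotypes (adjusted p = 0.00927 in *Nr2f6*+/+ and 0.0104 in *Nr2f6*-/- mice). *Fosl2*, an AP-1 subunit, gave -1.58 in *Nr2f6*+/+ (SE 0.299, adjusted p = 0.0115) and -1.501 in *Nr2f6*-/- mice (SE 0.299, adjusted p = 0.0146). Both were higher in *Nr2f6*-/- IgG2b than in *Nr2f6*+/+ αPD-L1 mice (by 2.27 for *Nr4a1* and 2.21 for *Fosl2*), as was *Bhlhe40*, a transcriptional repressor (1.28, SE 0.292, adjusted p = 0.041). *Bhlhe40* samples overlapped there, at 5770.5 to 8931 and 1625 to 5936 normalized counts. No value for *Bhlhe40* is given with 1 sample left out or in the first library set alone. The calls of *Nr4a1* and *Fosl2* for αPD-L1 were lost when some single control samples were left out, while the differences kept their direction. With 1 sample left out they ranged from -1.90 to -1.59 for *Nr4a1* and from -1.77 to -1.32 for *Fosl2* in *Nr2f6*+/+ mice. In *Nr2f6*-/- mice the ranges were -1.94 to -1.57 and -1.68 to -1.22. In *Nr2f6*+/+ mice *Nr4a1* had adjusted p = 0.0662 without IgG2b replicate 1 and 0.14 without replicate 3, and *Fosl2* had 0.0836 without replicate 2 and 0.221 without replicate 3. In *Nr2f6*-/- mice *Nr4a1* had 0.0768 without IgG2b replicate 1 and 0.082 without replicate 2, and *Fosl2* had 0.198 without replicate 2 and 0.065 without replicate 3. With library set as a covariate, *Nr4a1* had adjusted p = 0.0551 in *Nr2f6*+/+ mice and *Fosl2* 0.0608 in *Nr2f6*+/+ and 0.0594 in *Nr2f6*-/- mice. In the first library set alone, *Nr4a1* had 0.118 in *Nr2f6*-/- mice (-1.08), and *Fosl2* had 0.091 in *Nr2f6*+/+ and 0.143 in *Nr2f6*-/- mice. *Rgs2* between genotypes was not called in the second library set alone (1.28, adjusted p = 0.75). Members of this kind that were followed here, *Itgae*, *Itga1*, *Cd69* and *Zfp683*, were not counted in the list.

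Of 19 tested genes known to be low in resident T cells, *Tcf7*, the factor of stem-like and naive T cells, fell with αPD-L1 in *Nr2f6*+/+ mice (by 1.45, SE 0.261, adjusted p = 0.00912) and in the combination against *Nr2f6*+/+ IgG2b (by 1.49, SE 0.261, adjusted p = 0.00618), and no other was called (0.242% and 0.617% of all genes were). Without *Nr2f6*+/+ IgG2b replicate 2 the adjusted p was 0.122 in the first comparison and 0.0761 in the second, and without replicate 3 it was 0.0786 in the first. The medians of the 19 genes were -0.68 and -0.89, against -0.10 and -0.12 over all genes. Of 10 tested integrin ligands, *Fn1*, the fibronectin bound by VLA-4 and a product of macrophages and fibroblasts, fell in the combination against *Nr2f6*+/+ IgG2b (by 6.10, SE 1.45, adjusted p = 0.0407), from 163, 125 and 158 normalized counts to at most 3.64, in a comparison that called 0.617% of all genes. A fold this close to 0 depends on the pseudocount (-6.55 with a smaller one, adjusted p = 0.072). This call was lost when any of the 9 samples was left out (adjusted p from 0.0543 to 0.206), and 13 of the 14 macrophage and monocyte markers were lower in the same comparison, 6 of them called, with *Ly6c2* at 0.63 in the other direction. The part of macrophage RNA in it was not tested.

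By likeness of pattern over the 18 samples, with no test, the genes closest to *Itgae* among 11991 were *Pex2* (r = 0.752), *Fbxo22* (r = 0.746) and *AI846148* (r = 0.735). Those closest to *Itga1* were *Ctnnd2* (r = 0.867), *9430034N14Rik* (r = 0.784) and *Cd79b* (r = 0.746), a component of the B cell receptor. Those closest to *Itgb7* were *Klf7* (r = 0.777), *Map7* (r = 0.755) and *Mphosph10* (r = 0.753). These points share group and library set.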

How the data were processed

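T cells sorted for CD3 from B16-OVA tumors were profiled by QuantSeq 3′ mRNA sequencing on an Ion Torrent Proton. Per the labels and the methods of the study, the authors trimmed reads (Cutadapt, Trimmomatic), aligned them to mm10 (STAR, then Bowtie2), kept the primary alignment of multi-mapped reads and counted genes with HTSeq. Annotation and strand setting are not given in the sources used here. The deposited signal is the read count per gene divided by the size factor of the sample (normalized count). Each column was made of whole multiples of 1 step, so that dividing by it gave whole reads for 100% of values within 0.01, and these recovered reads were used by edgeR 4.0.16 and DESeq2 1.42.0 as alternatives. The deposited values are not counts, so the main test was limma 3.58.1 (R 4.3.3) with trend on log2(normalized count + 1), 1 model of 4 group means over 18 samples, on genes with a mean of at least 10 (11992 of 37236), two-sided, adjusted by Benjamini-Hochberg over all genes tested, with 0.05 as the threshold. Fold changes on this scale understate changes of low genes. The model was also run on simulated data, but the outcome is not given here and no result relies on it. No 2 columns were identical, and no unnamed rows were present.

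The members and lists were chosen with earlier results of these data known. Named genes were the members, a set of fixed residency and lineage genes, the genes past the threshold in each list (at most 3 per comparison, otherwise up to 2 with the lowest p) and the 3 genes most alike to *Itgae*, *Itga1* and *Itgb7*. *Bhlhe40* was named beyond this rule. Marker lists of T cell, CD8 and CD4, regulatory T cell, macrophage, dendritic cell, NK cell, B cell, platelet, tumor, endothelial and fibroblast, and neutrophil genes were summed. Sequences and start sites came from RefSeq GRCm38.p6. Comparisons with shared groups are not independent.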

Additional observations from a re-analysis of the deposited data

Results flagged for a closer look

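*Itgb1* in *Nr2f6*-/- αPD-L1 replicate 5 stood apart from the other 5 samples of its group, at 16238 normalized counts, with a gap to the next sample of 0.655 of the whole range on the log2 scale (critical value 0.625). It was the single such sample among 19 groups of 6 samples over the members, and chance gives about 1 in 20. The same sample held the highest *S1pr5* value.

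The genotype effect on *Itgae* with αPD-L1 differed between the library sets, being 4.81 larger on the log2 scale in the first than in the second (unadjusted p = 0.00744, adjusted p = 0.446 from limma), with all *Nr2f6*-/- samples above all *Nr2f6*+/+ samples in the first set and below them in the second. The difference between sets ranged from 4.06 to 5.03 under 8 other settings and from 4.26 to 5.32 when each αPD-L1 sample was left out in turn. It was not called in any of them. The contrast was chosen after the values were seen, and these settings reuse the same samples, so they are no separate support. A reversal without overlap in both sets was found for 0.584% of all genes.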

How the results depend on the processing

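0 members were called in each of the 7 comparisons under all 163 combinations of comparison and setting, including every left-out replicate, edgeR and DESeq2. The smallest adjusted p of a member was 0.0546, without *Nr2f6*+/+ αPD-L1 replicate 2 in *Nr2f6*-/- IgG2b against *Nr2f6*+/+ αPD-L1. The number of genes called was less stable, with 21 for genotype with αPD-L1 in the main fit and 0 to 184 under the others, 0 and 0 to 88 for genotype with IgG2b, 29 and 12 to 94 for αPD-L1 in *Nr2f6*+/+, 39 and 8 to 230 for αPD-L1 in *Nr2f6*-/-, 74 and 41 to 177 for the combination, 55 and 16 to 281 for *Nr2f6*-/- IgG2b against *Nr2f6*+/+ αPD-L1, and 0 and 0 to 76 for the difference of effects, each highest with DESeq2. With 1 sample left out the counts were 9 to 27, 0 to 0, 6 to 29, 13 to 41, 10 to 68, 20 to 55 and 0 to 0 in that order. The reversals were of differences that were not called. Between genotypes with αPD-L1 they were *Cd69* at -0.58 in the first library set, *Itgae* at -2.18 and *Itgb7* at -0.12 in the second, and, with 1 sample left out in turn, *Cd69* (-0.087 to 0.60), *Itgae* (-0.20 to 0.67) and *Itgb2* (-0.047 to 0.13). For αPD-L1 in *Nr2f6*+/+ they were *Cd69* at 0.26 in the first set and *Itgae* at 0.39 after quantile normalization and from -1.36 to 0.92 with 1 sample left out. The difference of effects on *Itgae* was 0.82 in the first set. The correlation of *Itga1* with *Itgb1* was -0.052 with library set centered, -0.058 with no centering and -0.729 in the first set. The cause was not tested. Quantile normalization moved the median of all genes by 0.10 for αPD-L1 in *Nr2f6*+/+ and by 0.11 for the combination. Samples with the same replicate number showed little likeness: 21 such pairs gave correlations of -0.0292 to 0.0366, and 6 of the pairs were best matches. How many best matches chance gives was not computed, and the check cannot exclude that samples were paired. With the number as a replicate block, 0 members were called in each comparison, and *Nr4a1* and *Fosl2* had adjusted p = 0.0884 for αPD-L1 in *Nr2f6*+/+ and 0.0655 and 0.0951 in *Nr2f6*-/-, and *Fn1* 0.0601 in the combination. Depth limits *Zfp683*, *S1pr5* and *Itga1*, each with 0 reads in some samples.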

Other observations

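Integrin chains of myeloid cells and platelets, which are not members, are given beside the marker lists of those cells, and none was called. *Itgam*, the CD11b chain of macrophages, was at 126 to 449 normalized counts in the 6 IgG2b samples and at 0 to 183 in the 12 αPD-L1 samples (difference -3.83 in *Nr2f6*-/- mice, SE 1.46, adjusted p = 0.335, and -3.14 in *Nr2f6*+/+ mice, SE 1.46, adjusted p = 0.649). *Itgax*, the CD11c chain of dendritic cells, gave -1.28 and -0.14 in the same comparisons (adjusted p = 0.698 and 0.994). *Itgb3*, a β chain of platelets and of melanoma cells, gave the lowest p of the non-member β chains, -2.19 between genotypes with αPD-L1 (SE 0.662, unadjusted p = 0.00251, adjusted p = 0.221). *Itga2*, a collagen-binding chain, gave -5.30 for the difference of the αPD-L1 effect between genotypes (SE 2.21, adjusted p = 0.974), and *Itgb8*, which activates TGF-β, 3.96 between genotypes with IgG2b (SE 1.74, adjusted p = 0.9). Both values rest on samples at 0 and depend on the pseudocount. *Itga2* was at 0 in 2 of 3 *Nr2f6*+/+ IgG2b and 5 of 6 *Nr2f6*-/- αPD-L1 samples. In *Nr2f6*-/- IgG2b samples its median was 9.37 and its highest value 165.5. *Itgb8* was at 0 in 1 of 3 *Nr2f6*+/+ IgG2b samples. Summed platelet markers had medians of 2347 in *Nr2f6*+/+ IgG2b, 280 in *Nr2f6*-/- IgG2b, 114 in *Nr2f6*+/+ αPD-L1 and 15.6 in *Nr2f6*-/- αPD-L1 samples. Summed melanocyte and tumor markers had medians of 2831, 1251, 3407 and 1259 in the same order. Their part in the values of the members was not tested.

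Other marker lists had the following summed medians in that order of groups. Regulatory T cell markers were at 9700, 10860, 10800 and 8542, dendritic cell markers at 2944, 4348, 1140 and 1185, NK cell markers at 955, 821, 868 and 1217, and CD8 and CD4 at 24450, 29550, 26710 and 36120. B cell markers were at 13.3, 2.85, 0.875 and 22.4, neutrophil markers at 9.12, 3.77, 0.429 and 7.12, and endothelial and fibroblast markers at 375, 398, 310 and 266.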
